A study of Mus musculus with 5 samples.

Results

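The proteasome genes of this series are the rows of the count table whose symbol is Psma, Psmb, Psmc, Psmd, Psme, Psmf or Psmg followed by a number, and 50 of the 24084 genes in the table met that rule. They cover the core particle, the regulatory particle that caps it, the alternative activators, the inhibitor and the dedicated assembly chaperones. Regulatory T cells (Treg cells, CD4+ T cells that express Foxp3 and keep other immune cells in check) had been sorted from mice aged 13 days of the Foxp3-DTR strain, in which the Foxp3 locus directs a fusion of the diphtheria toxin receptor with GFP. There were 3 libraries from skin-draining lymph node and 2 from skin, all from this one strain and age, and the labels name no treatment and no further genotype. The question addressed here is how the level of each proteasome gene in skin Treg libraries compared with that in lymph node Treg libraries, and how the immunoproteasome subunits Psmb8, Psmb9 and Psmb10 compared with their constitutive counterparts Psmb5, Psmb6 and Psmb7.

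The proteasome degrades proteins tagged with ubiquitin. Its core is a barrel of stacked rings: outer rings of alpha subunits gate the entry, and inner rings of beta subunits hold the active sites, each an N-terminal threonine that is exposed when a propeptide is removed. In lymphocytes and other haematopoietic cells, and in many cells exposed to interferon-gamma, newly assembled cores take Psmb8, Psmb9 and Psmb10 in place of Psmb5, Psmb6 and Psmb7. The resulting immunoproteasome cuts proteins with altered preferences and supplies many of the peptides that MHC class I molecules present.

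The exchange replaces each catalytic subunit with a paralog, so the reads of a pair must be told apart. The coding sequence around each active-site threonine is shown for that reason: 45 bases from the reference transcript, 5′ to 3′, with the threonine codon in capitals.
Psmb5: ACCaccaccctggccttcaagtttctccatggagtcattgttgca
Psmb8: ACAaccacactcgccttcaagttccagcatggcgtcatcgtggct
Psmb6: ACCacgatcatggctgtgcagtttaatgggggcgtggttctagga
Psmb9: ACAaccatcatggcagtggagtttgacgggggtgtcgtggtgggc
Psmb7: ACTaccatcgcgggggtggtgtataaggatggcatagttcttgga
Psmb10: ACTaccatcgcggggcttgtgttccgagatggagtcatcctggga
Within these windows Psmb5 and Psmb8 shared 35 of 45 bases, Psmb6 and Psmb9 shared 33, and Psmb7 and Psmb10 shared 32. Over the whole aligned coding sequence the identity was 67.6% for Psmb5 and Psmb8, with a longest identical run of 18 bases. For Psmb6 and Psmb9 it was 66.4%, with a longest run of 11 bases, and for Psmb7 and Psmb10 it was 63.4%, with a longest run of 15 bases. A read longer than such a run differs between the members of its pair. The 6 genes lie on 5 chromosomes of GRCm38. Psmb8 (chromosome 17, 34197721 to 34201454, plus strand) and Psmb9 (chromosome 17, 34181987 to 34187764, minus strand) sit in the MHC beside Tap1 and Tap2, which encode the transporter that carries proteasome products into the endoplasmic reticulum. Psmb10 is on chromosome 8 (105935735 to 105938444, minus strand), Psmb5 on chromosome 14 (54614119 to 54618022, minus strand), Psmb6 on chromosome 11 (70525367 to 70527858, plus strand) and Psmb7 on chromosome 2 (38588036 to 38644087, minus strand).

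Counts assigned to genes ranged from 12305644 to 14595018 in the lymph node libraries and from 10468795 to 10787378 in the skin libraries, and between 64.5% and 72.0% of the counted alignments in a library were set aside as not unique. The skin libraries detected 9192 and 9894 genes and the lymph node libraries 12173 to 12540. Of 8 Treg markers, 2 were higher in skin (Ctla4 and Ikzf2) and 0 lower, 4 had fitted values above 0 and 4 below, and their median log2 fold change was -0.03. Cd3e (-0.83, adjusted p = 0.0545), Cd3g (-0.76, adjusted p = 0.118) and Cd4 (-0.43, adjusted p = 0.402) had both skin libraries below all lymph node libraries. The summed level of the 8 was 8301 to 9717 CPM in lymph node and 9761 to 11326 CPM in skin, where CPM is the count scaled to a common library size after TMM normalization. Myeloid markers also differed: 10 of 15 tested were higher in skin, their summed level was 232 to 637 CPM in lymph node and 7683 to 9774 CPM in skin, and 6 of the 16 in the table were at 0 in all lymph node libraries (Cd14, Cd163, Cd209a, Clec10a, Sirpa and Cd36). Myeloid cells express proteasome genes too, and the part of that signal in the values below was not tested. Keratinocyte markers summed to 5.50 to 16.2 CPM in lymph node and 134 to 199 CPM in skin, fibroblast markers to at most 4.68 CPM in any library, B cell markers to 79.3 to 214 CPM in lymph node and 22.1 to 72.3 CPM in skin, CD8 and NK cell markers to 42.0 to 69.4 and 0 to 22.2 CPM, and mast cell markers to 9.65 to 24.9 and 0 to 12.8 CPM. The labels do not say how many animals gave each library, so p-values speak for the spread among these 5 libraries, which may be technical. With 2 libraries against 3, an exact permutation test of a single value cannot go below p = 0.1 one-sided, and no such test is given.

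No proteasome gene passed the threshold between skin and lymph node. Of the 50 genes, 48 had enough counts to be tested, and at an adjusted p of 0.05 (edgeR's quasi-likelihood test, Benjamini-Hochberg adjustment over 11437 genes) 0 were called higher in skin and 0 lower. Over all genes tested, 2.40% were called higher, 5.30% lower and 7.70% in either direction. At an unadjusted p under 0.05 there were 2 higher and 6 lower members, against 10.1% and 19.4% of all genes. DESeq2 called 5 of the 48 members (2 higher, 3 lower; 28.5% of all genes), which were Psmc3ip and Psmd7 higher and Psmb10, Psmc1 and Psmd3 lower, and limma-voom called 1, Psmd3, lower (19.5% of all genes). Every one of these member shares was below that of all genes under the same test.

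The fitted differences of the members were mostly small. The log2 fold change of skin over lymph node lay within 2-fold for 39 of 48 members (81.2%) and for 44.0% of all tested genes. The median was -0.31 over the members (interquartile range -0.56 to 0.11) and -0.21 over all tested genes (-1.87 to 0.83). Fitted values were below 0 for 32 members (66.7%) and above it for 16 (33.3%), against 55.7% and 44.3% of all tested genes. The median SD of log2(CPM + 1) was 0.29 among lymph node libraries and 0.56 between skin libraries for the members, and 0.37 and 0.74 for all tested genes. For the 5742 genes whose average log2 CPM reached 5, the medians were 0.28 and 0.68.

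**Figure D1:**
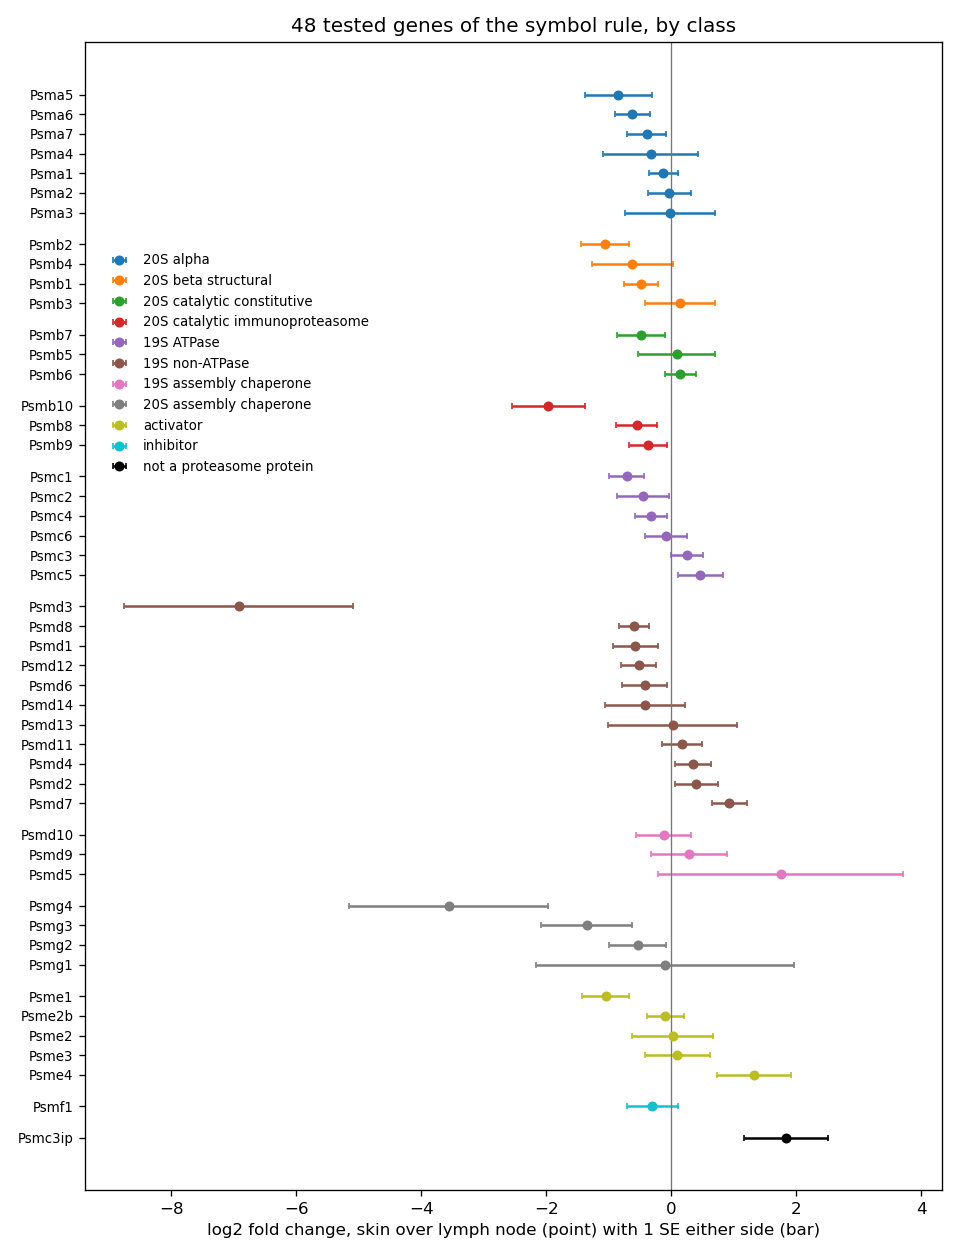
Each point is the log2 fold change of skin over lymph node (x axis) for one of the 48 tested genes, grouped and coloured by class, with a bar of 1 SE either side. Of the points, 39 lie between -1 and 1; Psmd3, at -6.92, and Psmg4, at -3.56, lie farthest to the left, and the widest bars belong to Psmg1, Psmd5 and Psmd3.

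Among the catalytic subunits, the 3 of the immunoproteasome had lower fitted levels in skin, most of all Psmb10, and the 3 constitutive ones showed no common direction. Lower levels were not particular to the immunoproteasome. The skin mean of its summed CPM was 0.606 of the lymph node mean. That ratio was 0.641 for the beta subunits without an active site and 0.643 for Psme1, Psme2 and Psme2b. It was 0.807 for the alpha subunits, 0.960 for the regulatory particle and 0.985 for the constitutive 3. The fitted value of Psmb7 (-0.49) was below that of Psmb9 (-0.37). In bulk RNA, fewer cells of a type and less RNA per cell cannot be told apart, here and in every level below. Psmb8, which replaces Psmb5 and carries the chymotrypsin-like activity, had the highest level per kilobase of all members in lymph node. It was at 1159, 881 and 1014 CPM in lymph node and 471 and 915 CPM in skin. Its second skin library lay inside the lymph node range and its first lay below it (log2 fold change -0.56, SE 0.33, adjusted p = 0.335, 95% interval -1.38 to 0.27). Psmb9, which replaces Psmb6, was at 291, 190.4 and 191 CPM in lymph node and 180.3 and 166 CPM in skin. Both skin values of Psmb9 lay below all 3 lymph node values, but the second lymph node library was only slightly above the first skin library (log2 fold change -0.37, SE 0.30, adjusted p = 0.492, 95% interval -1.13 to 0.39). Psmb10, which replaces Psmb7 and carries the trypsin-like activity, stood at 385, 247 and 332 CPM in lymph node and 127 and 37.5 CPM in skin. The skin libraries were below every lymph node library and differed 3.38-fold from each other (log2 fold change -1.97, SE 0.59, adjusted p = 0.0896, 95% interval -3.45 to -0.49). Psmb10 was called lower under 3 of 13 alternatives. DESeq2 gave -1.94 (adjusted p = 0.00869, in a fit that called 28.5% of all genes), and edgeR gave -3.10 without the first skin library (adjusted p = 0.000604, 48.7% of all genes called) and -1.35 without the second (adjusted p = 0.0194, 39.2% called). Under the other 10 its adjusted p ran from 0.0548 with limma-voom to 0.426 with a replicate block, and from 0.168 to 0.240 with 1 lymph node library left out. In the main edgeR fit, with both skin libraries, the interval of Psmb10 excluded 0 while its adjusted p missed the threshold.

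The constitutive subunits gave overlapping groups. Psmb5, the chymotrypsin-like subunit, was at 56.5, 34.5 and 45.7 CPM in lymph node and 30.98 and 65.6 CPM in skin, so that the skin libraries bracketed the lymph node libraries (log2 fold change 0.08, SE 0.61, adjusted p = 0.951, 95% interval -1.45 to 1.62). Psmb6, the caspase-like subunit, was at 376, 292 and 346 CPM in lymph node and 318 and 429 CPM in skin (log2 fold change 0.14, SE 0.24, adjusted p = 0.761, 95% interval -0.46 to 0.75). Psmb7, the trypsin-like subunit, was at 213, 134 and 135 CPM in lymph node and 89.00 and 139.5 CPM in skin (log2 fold change -0.49, SE 0.39, adjusted p = 0.474, 95% interval -1.46 to 0.48). For all 3 the interval includes no change and, for Psmb5, changes of more than 2-fold either way. Of the Psmb5 transcript, 88.4% has a near-identical copy in other annotated genes (Gm3375 among them). Reads that align to more than one place were not counted, and how many of them came from Psmb5 was not measured.

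**Figure D2:**
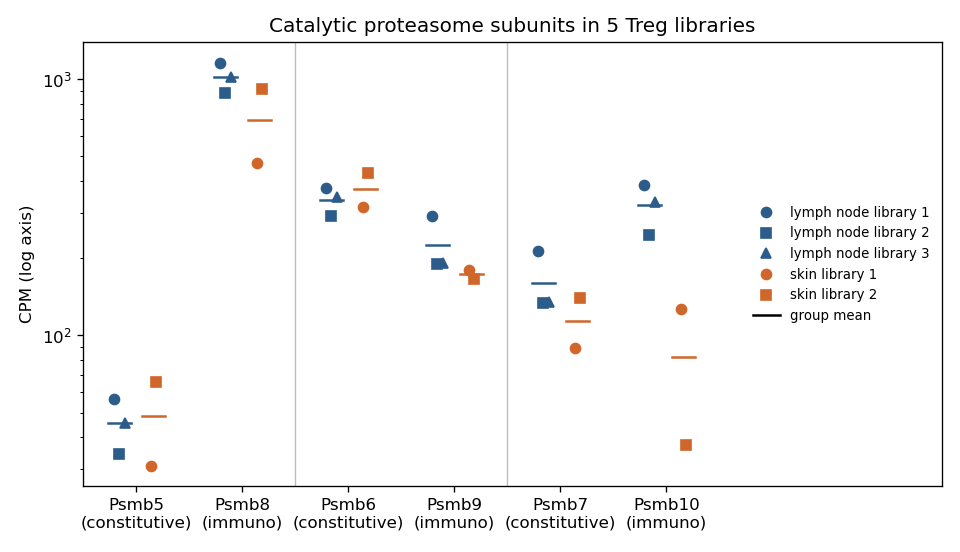
CPM on a log axis for each constitutive subunit and, to its right, the immunoproteasome subunit that replaces it; points are libraries (blue lymph node, orange skin, one marker shape per library number within a tissue) and bars are group means. The skin points of Psmb10 (127 and 37.5 CPM) lie below all its lymph node points, those of Psmb5 (30.98 and 65.6 CPM) lie on either side of its lymph node points, and Psmb6 has 1 skin point inside and 1 above its lymph node points.

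The ratio of the counts of each pair within a library removes library scaling. The ratio of Psmb8 to Psmb5 was 20.5, 25.5 and 22.1 in lymph node and 15.1 and 13.9 in skin, a difference of mean log2 ratios of -0.64. The ratio of Psmb9 to Psmb6 was 0.776, 0.652 and 0.552 in lymph node and 0.568 and 0.388 in skin, a difference of -0.48, and here the groups overlapped. The ratio of Psmb10 to Psmb7 was 1.81, 1.84 and 2.47 in lymph node and 1.43 and 0.270 in skin, a difference of -1.70. In the first and the last pair both skin ratios lay below all lymph node ratios. When each library was left out in turn, the Psmb10 difference ran from -2.90 to -0.50, its size resting mainly on the second skin library.

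The summed ratio, Psmb8, Psmb9 and Psmb10 over Psmb5, Psmb6 and Psmb7, was tight within each tissue. It was 2.85, 2.86 and 2.92 for lymph node and 1.78 and 1.76 for skin, a mean log2 ratio of 1.52 ± 0.02 (SD, n = 3) against 0.82 ± 0.01 (SD, n = 2), 1.62-fold lower in skin. Between the group means the difference lay in the numerator. The immunoproteasome sum was 1835, 1319 and 1537 CPM in lymph node and 778 and 1119 CPM in skin, and the constitutive sum was 645, 461 and 526 CPM against 437.5 and 635 CPM. The means were 1564 and 948 CPM for the first sum and 544 and 536 CPM for the second. In the second skin library the constitutive sum was above its lymph node mean, which also lowered that ratio. The nearly equal skin ratios came from different subunits. Psmb8 made up 60.5% of the immunoproteasome sum in the first skin library and 81.8% in the second, and 63.1% to 66.8% in lymph node. Psmb10 made up 16.3% and 3.36% in skin and 18.8% to 21.6% in lymph node. A ratio of counts between genes of different length and copy content is not a ratio of molecules, so only its difference between libraries is read here.

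**Figure D3:**
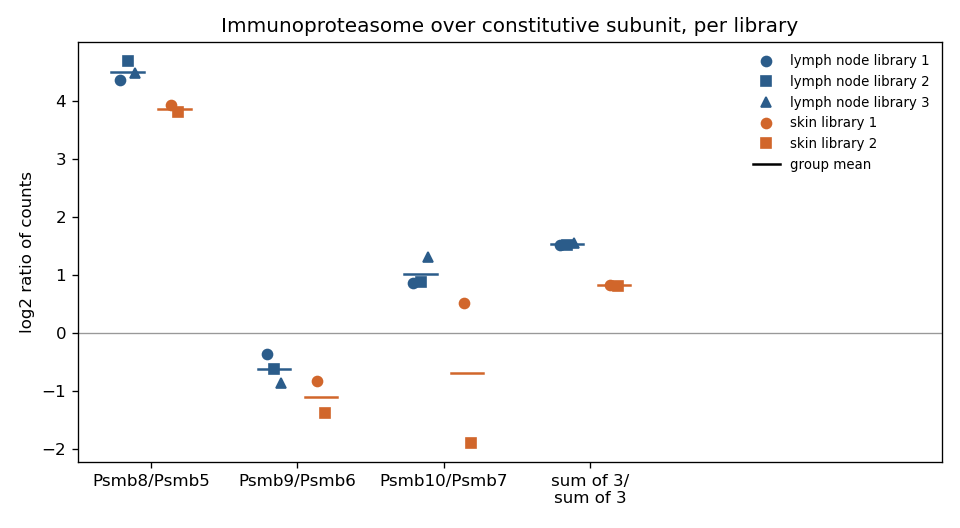
Log2 ratio of counts of the immunoproteasome subunit over the constitutive one in each library (y axis) for the 3 pairs and for the sum of the 3 over the sum of the 3; blue points are lymph node, orange points skin, bars group means. The summed ratio separates the tissues (1.52 against 0.82 on average) with almost no spread inside either, and the Psmb10/Psmb7 ratio has the widest spread in skin.

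Psmb9 shares its promoter region with Tap1, which is transcribed the other way. The RefSeq window of Psmb9 (GRCm38.p6, chr17:34187281-34187580, minus strand, 250 bases before the start and 50 after) shares 275 bases with the window of Tap1. It is shown because a single stretch of DNA serves both genes. Capitals mark a match to the core of the antioxidant response element (TGANNNNGC), the element bound by NRF1 and NRF2, at 60 bases before the start.
Psmb9: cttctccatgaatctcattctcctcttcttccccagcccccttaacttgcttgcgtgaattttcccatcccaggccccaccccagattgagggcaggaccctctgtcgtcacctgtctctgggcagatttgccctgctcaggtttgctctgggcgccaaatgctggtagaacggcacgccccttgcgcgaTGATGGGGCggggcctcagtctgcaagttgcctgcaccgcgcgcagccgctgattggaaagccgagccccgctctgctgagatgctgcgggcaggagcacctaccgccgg
The genes on either side of it had unlike values. Tap1 was at 153, 250.2 and 189 CPM in lymph node and 382 and 82.3 CPM in skin (log2 fold change 0.23, SE 0.65, adjusted p = 0.866), its skin libraries above and below all lymph node libraries, and Psmb9 differed 1.08-fold between the skin libraries. The strand setting of the counting is not given in the sources used here, and the annotated Psmb9 and Tap1 genes overlap on opposite strands, so reads from the shared stretch cannot be told apart by gene if strand was not used.

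Motif matches were counted on both strands in the promoter windows of the 42 members found in the RefSeq table, and motifs may overlap each other. The antioxidant response element core was in 24 of them (57.1%) and in 45.05% of all genes with a window (41.3% of all windows). The interferon-stimulated response element (GAAA, any 2 bases, GAAA) was in 5 (11.9%; 3.99% of all genes), namely Psmb3, Psmd4, Psmd9, Psme1 and Psmg4, and in none of the windows of Psmb8, Psmb9 and Psmb10. The STAT motif TTCNNNGAA was in 3 (7.14%; 9.55% of all genes), namely Psmb8, Psmd2 and Psmg1. In Psmb8 the match TTCCCAGAA began 97 bases before the start. A match describes the letters in the window only.

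The alpha subunits, which form the outer rings and the gate, had fitted values below 0 over the 5 libraries, and none passed the test. Some signs did not hold: Psma3 came to 0.042 with RLE scaling and with DESeq2 and to 0.12 without the first lymph node library, and without the first skin library Psma2, Psma3 and Psma4 came to 0.27, 0.66 and 0.45. The 7 tested had a median log2 fold change of -0.33, from -0.85 for Psma5 to -0.02 for Psma3. Psma7 and Psma6 had the highest levels per kilobase over the 5 libraries. Psma7 was at 549.6, 347 and 415 CPM in lymph node and 262 and 403 CPM in skin, its skin libraries below and within the lymph node range (log2 fold change -0.40, SE 0.31, adjusted p = 0.477). Psma6 was at 514, 325 and 376 CPM in lymph node and 238 and 286 CPM in skin (log2 fold change -0.63, SE 0.28, adjusted p = 0.215), and here both skin libraries were below all lymph node libraries. Psma5 was at 86.9, 53.5 and 57.1 CPM in lymph node and 41.5 and 31.8 CPM in skin (log2 fold change -0.85, SE 0.53, adjusted p = 0.363), again without overlap, but 76.5% of its transcript has a near-identical copy in other annotated genes. Psma3 was at 67.8, 55.9 and 46.7 CPM in lymph node and 21.9 and 89.9 CPM in skin, where the skin libraries lay on either side of the lymph node libraries (log2 fold change -0.02, SE 0.72, adjusted p = 0.987). The other tested alpha subunits, with their log2 fold changes, were Psma1 (-0.13), Psma2 (-0.04) and Psma4 (-0.33), with adjusted p from 0.790 to 0.962, and for Psma4 the first skin library stood apart at 40.1 CPM against 152 to 255 CPM in the other 4.

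The beta subunits without an active site build the inner rings around the catalytic ones. Their summed level was 1105 ± 173 CPM in lymph node (SD, n = 3) and 709 ± 65.6 CPM in skin (SD, n = 2). Psmb2 was at 517, 345 and 391 CPM in lymph node and 267 and 134 CPM in skin, both skin values under the lymph node range (log2 fold change -1.06, SE 0.38, adjusted p = 0.139, 95% interval -2.02 to -0.10). Psmb1 was at 639, 399 and 580.1 CPM in lymph node and 371 and 399.8 CPM in skin (log2 fold change -0.49, SE 0.27, adjusted p = 0.296), and its second skin library just exceeded the lowest lymph node library. Psmb3 was at 76.4, 48.7 and 53.5 CPM in lymph node and 40.2 and 90.8 CPM in skin (log2 fold change 0.14, SE 0.56, adjusted p = 0.909), with 80.7% of its transcript in near-identical copies. Psmb4 was at 50.2, 144 and 71.1 CPM in lymph node and 76.9 and 37.9 CPM in skin, with the lymph node libraries spread 2.87-fold (log2 fold change -0.62, SE 0.65, adjusted p = 0.599).

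Across the members, both skin libraries lay below all lymph node libraries for 13 of 48 genes, against 33.5% of all tested genes, and above them for 2, against 16.8%. The 13 were Psma5, Psma6, Psmb2, Psmb9, Psmb10, Psmc1, Psmd1, Psmd3, Psmd8, Psmd12, Psme1, Psmg3 and Psmg4, and the 2 were Psmd7 and Psmc3ip. Both shares are below those of all genes.

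The regulatory particle recognises ubiquitinated proteins, unfolds them and feeds them to the core. Its ATPases form the ring that does the unfolding, and all 6 were tested, with 2 values above 0, 4 below and a median of -0.20. Without the first skin library Psmc2 (0.03) and Psmc6 (0.28) were above 0, and without the second Psmc5 (-0.16) was below it. Psmc3 was at 543, 368 and 429 CPM in lymph node and 463 and 599 CPM in skin, one skin library inside and one above the lymph node range (log2 fold change 0.25, SE 0.25, adjusted p = 0.592). Psmc5 was at 324, 248 and 323 CPM in lymph node and 267 and 555 CPM in skin, its second skin library above and its first inside the lymph node range (log2 fold change 0.46, SE 0.36, adjusted p = 0.469). Psmc1 was at 226, 174 and 213 CPM in lymph node and 136 and 113 CPM in skin, with no overlap (log2 fold change -0.72, SE 0.28, adjusted p = 0.159). DESeq2 called Psmc1 lower at -0.68 (adjusted p = 0.0296), and 82.0% of its transcript has near-identical copies in other annotated genes.

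The non-ATPase subunits form the lid and the scaffold of the regulatory particle, and the lowest fitted value of all tested members was among them. Psmd3, a scaffold subunit of the lid, was at 30.1, 13.2 and 14.3 CPM in lymph node and 0 and 0.2996 CPM in skin. The skin libraries held 0 and 3 counts against 808 in the 3 lymph node libraries, a ratio of depth-scaled counts of 134 with a 95% interval of 45.6 to 649 that covers counting error only. The libraries were made from low input and the skin libraries detected fewer genes (9192 and 9894 against 12173 to 12540), and whether counts at or near 0 there, here and for Psmd5, Psmg1 and Psmg4, come from loss of transcripts in amplification was not tested. Psmd3 had the smallest adjusted p of the members, 0.0689 with edgeR, and was called lower by DESeq2 (-6.96, adjusted p = 4.66e-06) and by limma-voom (-7.14, adjusted p = 0.0128). The other 10 tested non-ATPase subunits had counts in both skin libraries, and the smallest of their skin values was 13.1 CPM, for Psmd13 in the second library. Psmd14, the deubiquitinase that strips ubiquitin chains from substrates, was at 495, 347 and 391 CPM in lymph node and 109 and 505 CPM in skin, with a 4.61-fold gap between the skin libraries (log2 fold change -0.42, SE 0.63, adjusted p = 0.731). Psmd7, its partner in the same heterodimer, was at 198, 155 and 212 CPM in lymph node and 295 and 422 CPM in skin, both skin values above all lymph node values (log2 fold change 0.93, SE 0.28, adjusted p = 0.0888, 95% interval 0.23 to 1.62). Psmd6 was at 343, 199.7 and 227 CPM in lymph node and 149.7 and 232 CPM in skin (log2 fold change -0.43, SE 0.36, adjusted p = 0.509). Psmd8 was at 272, 310.4 and 244 CPM in lymph node and 182 and 182 CPM in skin, nearly the same in both skin libraries and below all lymph node libraries (log2 fold change -0.60, SE 0.24, adjusted p = 0.167). Psmd13 was at 132, 100.2 and 112 CPM in lymph node and 219.7 and 13.1 CPM in skin, the skin libraries above and far below the lymph node range (log2 fold change 0.02, SE 1.04, adjusted p = 0.993). The remaining regulatory particle genes, with their log2 fold changes, were Psmc2 (-0.45), Psmc4 (-0.32), Psmc6 (-0.08), Psmd1 (-0.57), Psmd2 (0.40), Psmd4 (0.35), Psmd11 (0.17) and Psmd12 (-0.53). Their adjusted p ran from 0.290 to 0.909, and their levels from 139.5 to 413 CPM in lymph node and from 119.6 to 416 CPM in skin. Psmd2, a scaffold of the base, has 98.2% of its transcript in a near-identical copy, and Psmd11 has 54.8%.

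Summed over the complex, the group means of core and regulatory particle did not show the same shift. The 19 core genes summed to 5068 ± 945 CPM in lymph node (SD, n = 3) and 3690 ± 761 CPM in skin (SD, n = 2), where the skin mean was 0.728 of the lymph node mean. The 17 regulatory particle genes summed to 4377 ± 530.2 CPM and 4201 ± 1221 CPM, a skin mean at 0.960 of the lymph node mean. Both sums overlapped between the tissues. For the core, the second skin library (4228 CPM) lay just above the second lymph node library (4208 CPM). The core sum includes Psmb8, Psmb9 and Psmb10, which together had a lymph node mean of 1564 CPM against 948 CPM for skin. The lower core mean, and with it the ratio that follows, therefore partly repeats the difference already given for those genes. Within each library, the ratio of the regulatory to the core sum was 0.804, 0.910 and 0.897 in lymph node and 1.06 and 1.20 in skin, so the groups did not overlap. This ratio was chosen after the values had been seen, and no test was made of it.

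Some assembly factors had variable values. With counts under 3 set at 3, 3 of them (Psmg1, Psmg4 and Psmd5) differed more than 10-fold between the skin libraries, as did 26.4% of all tested genes. These 3 had low lymph node means, from 17.7 to 23.2 CPM. The gap was 1.30-fold for Psmg2, 2.05-fold for Psmd10, 2.48-fold for Psmd9 and 2.92-fold for Psmg3. Psmg1 and Psmg2 form a heterodimer that starts the alpha ring and blocks its premature dimerisation, and Psmg3 and Psmg4 form a second one. Their 4 fitted values were below 0, with a median of -0.95, but Psmg1 came to 0.89 without the first skin library and 0.04 without the third lymph node library. Psmg1 was at 19.7, 22.3 and 27.4 CPM in lymph node and 0 and 43.2 CPM in skin, so that the skin libraries lay on either side of the lymph node range (log2 fold change -0.10, SE 2.07, adjusted p = 0.981). The count of 0 in the first skin library allows a level of up to 0.281 CPM. Psmg2 was at 136, 66.9 and 125 CPM in lymph node and 65.4 and 85.2 CPM in skin (log2 fold change -0.54, SE 0.46, adjusted p = 0.507). Psmg3 was at 69.3, 47.9 and 46.2 CPM in lymph node and 10.9 and 31.7 CPM in skin, and Psmg4 was at 21.4, 14.2 and 17.5 CPM in lymph node and 0.0936 and 2.90 CPM in skin. Both skin libraries were below all lymph node libraries for Psmg3 (log2 fold change -1.36, SE 0.73, adjusted p = 0.292) and for Psmg4 (log2 fold change -3.56, SE 1.59, adjusted p = 0.215). The 744 lymph node and 30 skin counts of Psmg4 give a ratio of depth-scaled counts of 12.3 (95% interval 8.55 to 18.4, counting error only).

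The chaperones of the regulatory particle base bind single ATPases and leave before the particle is complete. Psmd5 was at 22.9, 26.4 and 9.51 CPM in lymph node and 132 and 0.0999 CPM in skin, so that one skin library was above and the other far below all lymph node libraries (log2 fold change 1.75, SE 1.96, adjusted p = 0.628). Psmd9 was at 79.7, 42.8 and 47.1 CPM in lymph node and 39.5 and 97.8 CPM in skin (log2 fold change 0.28, SE 0.61, adjusted p = 0.824), and Psmd10, also known as gankyrin, was at 132, 96.3 and 151 CPM in lymph node and 76.2 and 156 CPM in skin (log2 fold change -0.12, SE 0.44, adjusted p = 0.896). The groups overlapped for all 3.

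The activators open the core without ubiquitin. Psme1 and Psme2 encode the alpha and beta chains of PA28, the interferon-inducible cap that works with the immunoproteasome. Psme1 was at 764, 486 and 654 CPM in lymph node and 406 and 207 CPM in skin, both skin libraries below all lymph node libraries (log2 fold change -1.05, SE 0.38, adjusted p = 0.136, 95% interval -1.99 to -0.11). Psme2 was at 47.97, 26.8 and 32.7 CPM in lymph node and 45.1 and 27.6 CPM in skin and its near copy Psme2b at 381, 221 and 302 CPM in lymph node and 297 and 267 CPM in skin. Their coding sequences are 99.3% identical, with a longest identical run of 311 bases, so how the reads divide between them is uncertain, and for neither gene did the skin libraries leave the lymph node range (log2 fold change 0.02, SE 0.65, adjusted p = 0.988 for Psme2, log2 fold change -0.09, SE 0.29, adjusted p = 0.882 for Psme2b). Summed over Psme1, Psme2 and Psme2b the level was 972 ± 230.1 CPM in lymph node (SD, n = 3) and 625 ± 174 CPM in skin (SD, n = 2).

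Psme3, the nuclear PA28 gamma, was nearly level, at 45.6, 46.8 and 39.5 CPM in lymph node and 45.1 and 48.9 CPM in skin (log2 fold change 0.10, SE 0.51, adjusted p = 0.932, 95% interval -1.19 to 1.39). Psme4, the PA200 cap linked to the turnover of acetylated histones, was at 70.03, 97.1 and 83.2 CPM in lymph node and 86.01 and 333 CPM in skin, where the first skin library lay inside the lymph node range and the second far above it (log2 fold change 1.33, SE 0.59, adjusted p = 0.214). Psmf1, which encodes the inhibitor PI31, was at 152, 143 and 139.7 CPM in lymph node and 160.2 and 74.7 CPM in skin (log2 fold change -0.30, SE 0.41, adjusted p = 0.692), with the skin libraries on either side of the lymph node range.

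Members with a tissue-restricted role elsewhere were near or at 0. Psmb11, the catalytic subunit of the thymic cortex, had no count in any library, which allows up to 0.0719 CPM over all lymph node libraries and up to 0.145 CPM over both skin libraries. Psma8, the alpha subunit of the testis proteasome, had 65 counts in the first lymph node library (4.57 CPM) and none in the other 4 libraries. Neither was tested. Psmc3ip meets the symbol rule but encodes a partner of the meiotic recombinases and is no proteasome subunit. It was at 12.2, 10.7 and 9.92 CPM in lymph node and 36.1 and 42.1 CPM in skin, both skin libraries above all lymph node libraries (log2 fold change 1.84, SE 0.68, adjusted p = 0.144), and DESeq2 called it higher (1.88, adjusted p = 2.33e-05).

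Some members differed strongly between the skin libraries, in smaller shares than all tested genes. With counts under 3 set at 3, the gap between those libraries was over 2-fold for 18 of 48 members (37.5%; 53.3% of all tested genes) and over 10-fold for 4 (8.33%; 26.4% of all), which were Psmd5, Psmd13, Psmg1 and Psmg4. The second skin library had the higher value for 34 of 48, and the share over all genes was not computed. Among lymph node libraries 4 members (8.33%; 35.98% of all genes) had a gap over 2-fold. There the order of libraries was shared by most members: the first was the highest for 36 of 48 (75%; 36.1% of all genes), and the second the lowest for 36 of 48 (34.2% of all genes). The members together took 1.29%, 0.973% and 1.11% of the gene counts in lymph node and 0.781% and 1.02% in skin.

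Leaving out a library changed what could be called. With any 1 lymph node library left out, no gene of the table passed the threshold with edgeR, and 2, 5 and 3 of the 48 members had an unadjusted p under 0.05 without the first, the second and the third (22.5%, 22.7% and 21.5% of all genes). Without the first skin library 12 of 49 members tested passed (48.7% of all genes), and without the second 14 of 49 (39.2%). In these fits the lone skin library is assumed to vary like the lymph node libraries. Psmb10, Psmd3 and Psmg4 were lower and Psmc3ip was higher in both fits. Psmd5 and Psmd13 passed in both but in opposite directions, at -7.49 and -3.14 without the first skin library and 2.74 and 0.93 without the second. Psmb2 (-1.65), Psmc5 (0.89), Psmd7 (1.16), Psme1 (-1.62), Psme4 (1.99) and Psmf1 (-0.96) passed without the first skin library and not without the second. Psma3 (-1.38), Psma4 (-2.22), Psmb8 (-1.12), Psmc2 (-1.20), Psmd1 (-1.15), Psmd14 (-1.91), Psmg1 and Psmg3 (-2.33) passed without the second and not without the first. For Psmb8 the adjusted p was 0.0135 without the second skin library and 0.593 without the first, where its log2 fold change was -0.16.

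**Figure D4:**
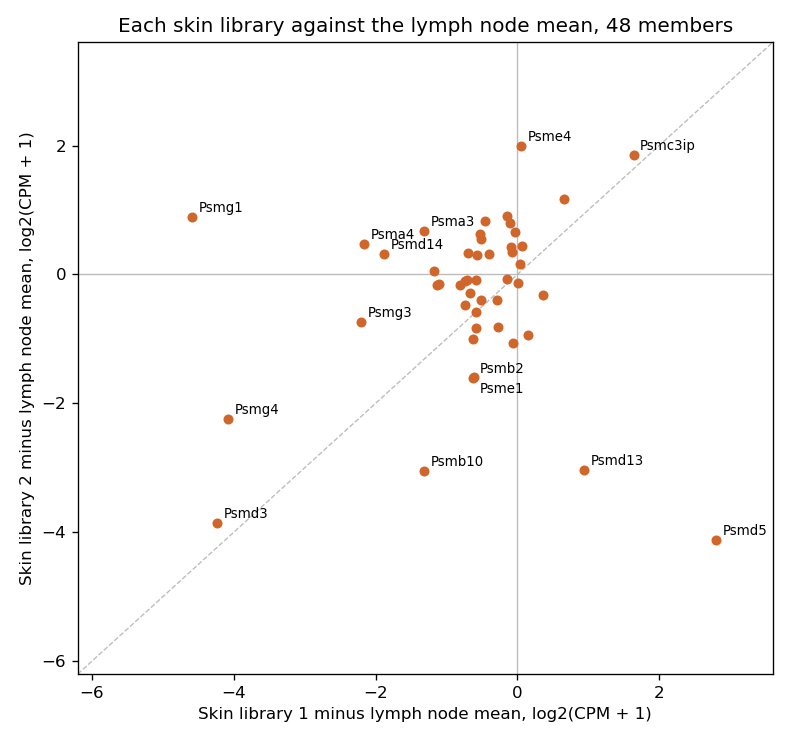
For the 48 tested genes, log2(CPM + 1) in skin library 1 minus the lymph node mean (x axis) against the same for skin library 2 (y axis); the dashed line marks equal values. Psmd3, Psmg4 and Psmb10 lie in the lower left, where both skin libraries are below lymph node, Psmc3ip in the upper right, and Psmd5, Psmd13 and Psmg1 on opposite sides of 0 for the 2 libraries.

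Per kilobase of annotated exon, the most abundant members were not the same in both tissues. In lymph node the highest means were Psmb8 at 609.8 ± 83.2 CPM per kb (SD, n = 3), Psme1 at 513 ± 113, Psmb2 at 486 ± 104 and Psmb6 at 423 ± 53.05. In skin they were Psmb6 at 468 ± 99.2 CPM per kb (SD, n = 2), Psmb8 at 415 ± 188, Psme2b at 337 ± 25.03 and Psmc5 at 312 ± 155. In neither list did a gene differ from the next one in the order by more than the SDs of the 2 together. Psmb10 held rank 11 of the members in lymph node and rank 29 in skin. Of the 50 members 9 have over 50% of their transcript at 95% identity or more in the transcripts of other genes, and 24 overlap another annotated gene. The reads that such members lost or shared were not measured.

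Genes that work with the proteasome are given beside the share of all genes called in either direction, which was 7.70% with edgeR, 28.5% with DESeq2, 19.5% with limma-voom and 29.5% at an unadjusted p under 0.05 with edgeR. None of 9 assembly and associated genes passed edgeR's test, with a median log2 fold change of -0.45 (2 at an unadjusted p under 0.05, 2 called by DESeq2 and 1 by limma-voom). Pomp, the maturation factor that helps build the immunoproteasome, was at 365, 202 and 251 CPM in lymph node and 163 and 186 CPM in skin (log2 fold change -0.65, SE 0.33, adjusted p = 0.264), and Usp14, the deubiquitinase that sits on the regulatory particle, was at 164, 145 and 199 CPM in lymph node and 73.8 and 65.4 CPM in skin (log2 fold change -1.28, SE 0.32, adjusted p = 0.0622). Both lay below lymph node in both skin libraries. None of 9 regulators of proteasome genes passed with edgeR, DESeq2 or limma-voom (median 0.16; 0 at an unadjusted p under 0.05). Of 8 tested ubiquitin shuttles and segregase genes edgeR called 0 (median 0.99, with 3 at an unadjusted p under 0.05), DESeq2 4 and limma-voom 1. Of the 3, Ubqln2 (1.94) and Ubqln4 (1.59) were higher in skin and Ufd1l (-1.08) was lower. Of 6 ubiquitin and E1 genes edgeR called 1 higher in skin and 0 lower. In either direction, 2 had an unadjusted p under 0.05 with edgeR, and DESeq2 called 2 and limma-voom 2. The gene called by edgeR was the ubiquitin precursor Ubb, at 227, 218 and 191 CPM in lymph node and 612 and 516 CPM in skin (log2 fold change 1.41, SE 0.21, adjusted p = 0.0411). The other gene at an unadjusted p under 0.05, Rps27a, was lower in skin (log2 fold change -4.95, SE 1.14, adjusted p = 0.0552). It had 5 and 4 counts in the skin libraries.

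Of 11 class I antigen processing genes 1 rose in skin (median of the list -0.02; 3 at an unadjusted p under 0.05, 2 with DESeq2 and 2 with limma-voom). It was the peptide editor Tapbpl, at 112, 97.4 and 110.1 CPM in lymph node and 270.4 and 268 CPM in skin (log2 fold change 1.34, SE 0.24, adjusted p = 0.0463). Tap2 was at 118, 153 and 196 CPM in lymph node and 405 and 84.4 CPM in skin, and like Tap1 it had 1 skin library above and 1 below all lymph node libraries. Of 17 genes of the interferon axis 2 fell (median of the list -0.49; 5.30% of all genes were called lower). At an unadjusted p under 0.05 there were 6 of the list, and DESeq2 called 6 and limma-voom 3, in either direction. Irf9, the DNA-binding part of the type I interferon-activated complex, was at 355, 312 and 395 CPM in lymph node and 44.4 and 33.9 CPM in skin (log2 fold change -3.18, SE 0.30, adjusted p = 0.0224). Ifit1, an interferon-induced antiviral gene, was at 155, 61.9 and 351 CPM in lymph node and 0.281 and 0 CPM in skin (adjusted p = 0.0424 with edgeR). Irf1, a direct activator of the immunoproteasome genes, was at 641, 641 and 669 CPM in lymph node and 567 and 563 CPM in skin (log2 fold change -0.20, SE 0.17, adjusted p = 0.493), its skin values below lymph node by a small margin. The summed level of the list was 3655 to 4718 CPM in lymph node and 2363 to 2563 CPM in skin, beside an immunoproteasome sum of 1319 to 1835 CPM and 778 to 1119 CPM. These lists were drawn up with earlier results of the same libraries known, and nothing particular to them is read from their counts.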

How the data were processed

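RNA from sorted, frozen Treg cells was made into libraries with an ultra-low-input kit, per the labels' protocols. Reads were processed with HTSeq 0.6.1, SAMtools 0.1.19.0, TopHat2 2.0.12, Bowtie2 2.1.0.0 and CASAVA 1.8.2 with the mm10 build, per the submitters' processing notes, which give no order or strand setting. The authors deposited whole-number counts per gene for the 5 libraries. The header lacks a cell for the gene column, so each library name was taken to belong 1 column to the right of its place; every per-library value rests on that reading. The table has 24089 lines, of which 5 summary rows (64.5% to 72.0% of alignments not unique, 0.400% to 0.433% ambiguous) were kept out of library sizes and tests.

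Counts were filtered with filterByExpr (minimum count 10), scaled by TMM and fitted with edgeR 4.0.16's quasi-likelihood test, skin against lymph node, with Benjamini-Hochberg adjustment over 11437 genes and a threshold of 0.05. The 95% intervals of fold changes come from the SE and the degrees of freedom of the fit. DESeq2 1.42.0, limma-voom (limma 3.58.1), other scalings and filters, a replicate block and each library left out were alternatives. Log2 count ratios used a prior count of 1. Floors and ratio intervals cover counting error only, and the floor is 3 counts. Near-identical copies (at least 95% identity over 50 bases) were sought with BLAST 2.17.0 among GENCODE M21 transcripts, which also gave positions and lengths. Promoters are RefSeq's, GRCm38.p6.

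Members and gene lists were chosen with earlier results of these data known. The genes named were the 6 catalytic subunits, the tissue-restricted subunits, activators, inhibitor, assembly factors and Psmc3ip. In the other families, taken by symbol, they were the 2 most abundant per kilobase and those with the largest positive and negative fold change (Psmd5 and Psmd3 in Psmd). Any member with no count in a group or over a 10-fold gap between the skin libraries was also named. Psmd7, Psmd8, Psme2b, Psmb4, every other member outside this rule and the associated genes given with values were chosen after their values were seen.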

Additional observations from a re-analysis of the deposited data

How the results depend on the processing

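Of 429 gene values (33 genes under every alternative) 367 kept their direction and side of the threshold, 25 came to pass it and 37, of 14 genes, changed sign. The genes called over the whole table were 275 higher and 606 lower in skin; these became 136 and 179 with no low-count filter, 419 and 972 at a minimum count of 50, 1235 and 2027 with DESeq2 and 566 and 1665 with limma-voom, and ran from 0 to 2110 and from 0 to 3955 when each library was left out. Members called were 0 and 0; DESeq2 gave 2 higher and 3 lower and limma-voom 0 and 1, and leaving out each library gave 0 to 4 higher and 0 to 11 lower. The median over members ran from -0.59 to -0.15 and the summed immunoproteasome ratio from -0.71 to -0.69 with each library left out, and the Psmb8, Psmb9 and Psmb10 pair ratios from -0.71 to -0.55, from -0.75 to -0.20 and from -2.90 to -0.50. The ratio of regulatory to core sums differed by 0.26 in all libraries and by 0.19 to 0.33 with each left out, an alternative added after seeing the data.

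Signs changed for members near 0 or with unlike skin libraries, and the cause was not tested. With RLE scaling and with DESeq2 Psma3 came to 0.042. Upper quartile scaling gave Psmb3 -0.031, Psmb5 -0.085, Psmb6 -0.014, Psmd13 -0.094, Psme2 -0.12 and Psme3 -0.056, while it moved the median of all tested genes from -0.21 to -0.37; no scaling factors gave Psmd13 -0.011 and Psme2 -0.023; limma-voom gave Psmb5 -0.026, Psmd13 -1.01 and Psmd5 -2.02. With each library left out the values ran from -1.38 to 0.66 for Psma3, -0.57 to 0.60 for Psmb3, -0.56 to 0.52 for Psmb5, -0.10 to 0.34 for Psmb6, -0.16 to 0.89 for Psmc5, -0.74 to 0.30 for Psmd10, -3.14 to 0.93 for Psmd13, -1.91 to 0.29 for Psmd14, -7.49 to 2.74 for Psmd5, -0.52 to 0.78 for Psmd9, -0.38 to 0.33 for Psme2, -0.96 to 0.14 for Psmf1 and -11.25 to 0.89 for Psmg1.

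The labels give libraries of both tissues the numbers 1 and 2 but do not say that a number marks a shared source. Same-numbered libraries correlated at -0.036 and -0.032 after their group means were removed. With 2 skin libraries the deviations from their mean are equal and opposite, so these values cannot show whether libraries were paired. A replicate block called 11 genes higher and 10 lower, and no member, and gave Psmb3 -0.013, Psmd13 -1.09, Psmd5 -2.32 and Psme2 -0.024.

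The common dispersion, fitted over all tested genes and not over the members, was 0.843. Skin gaps were over 2-fold for 18 of 48 members (37.5%; 53.3% of all tested genes). With 2 skin libraries, differences of the size seen for most members could not be told from the spread between libraries.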
